A study of Mus musculus with 10 samples.

Results

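Translation initiation factors (eIFs) and elongation factors (eEFs) were described in RNA from neurites, the axons and dendrites of cultured neurons, in 10 libraries. The genes were chosen by symbol: protein-coding genes in the GENCODE mouse annotation whose symbol starts with Eif1 to Eif6 or with Eef, without the eIF2 kinases, and with 2 or more libraries at 1 or above. The annotation held 65 such symbols and the values held 64, of which 61 passed. Eif4e1b, Eif4ebp3 and Eef1akmt3 did not pass, and Eef1akmt4 was not analysed here. The 61 genes are set against 15712 genes tested, of 45195 genes in the values.

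Cortical neurons of E16.5 mouse embryos were grown on membranes with 3 µm pores, through which their neurites grow to the underside. Wild-type neurons came from C57BL/6 mice, and the neurons called knockout came from Cpeb1 flox/flox mice of the same background. Cpeb1 encodes an RNA-binding protein that regulates poly(A) tails and translation. At plating, every culture, wild-type included, received AAV2 expressing Cre from the CAG promoter, which is active in most cell types. Injured neurites had been scraped off the underside on day 7, and RNA was taken 24 hours later, at 8 days in vitro, as it was from naive neurites. Naive neurites had thus grown for longer than those that followed the scrape, and that difference in age cannot be told apart from injury. Each wild-type group, naive or injured, had 3 libraries, and each knockout group had 2. The labels do not say whether libraries came from separate cultures, so the p-values rest on a spread among libraries that may be technical. In bulk RNA, fewer neurites of a type and less RNA per neurite cannot be told apart.

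Translation begins when eIF2 brings the initiator tRNA to the small ribosomal subunit. eIF1 and eIF1A keep that subunit scanning until it meets a start codon, eIF3 holds the complex together, and the eIF4 factors bind the cap of the mRNA and unwind its leader. eIF2B reloads eIF2 with GTP, and eEF1 and eEF2 drive elongation. Neurites hold ribosomes and many mRNAs of the translation machinery, and injured axons are known to make proteins locally.

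The libraries held between 12231 and 13143 genes at a value of 1 or more. The library labelled wild-type injured 3 stood apart, with the fewest such genes and a mean correlation over genes with the others that was the lowest of all, 0.839. It also had the largest share of its total, 28.2%, in genes taken as ribosomal RNA, against 11.1% to 23.3% in the others. Those genes were picked by symbol and not by their annotated type. Cpeb1, the targeted gene, was at 7.16, 5.96 and 5.86 in wild-type naive libraries and 1.65, 13.8 and 22.6 in wild-type injured libraries. With a knockout label it was at 5.97 and 0.356 before injury and at 1.14 and 3.15 after it. The library labelled knockout naive 1 thus lay within the wild-type naive range and wild-type injured 1 below it, so directions between genotypes rest on the labels. Which exons were deleted is not given in the sources used here, and a value over the whole gene may not show the deletion.

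The factors were among the more abundant transcripts of these libraries. The libraries also held RNA of astrocyte markers and nuclear-retained transcripts, given below, so levels are those of the whole preparation. Values are FPKM, fragments scaled to transcript length and to the library, on the authors' scale, so levels of different genes are compared per length. The median factor had a mean of 51.8, against 7.73 for all genes tested, and 28 of 61 lay above the 90th percentile of all genes. Eef1a1, whose protein carries aminoacyl-tRNAs to the ribosome, stood highest of the 61 with a mean of 2874 and ranked 22 among all genes. Eif1, the start codon fidelity factor, followed at 1045, and Eif5a, which helps ribosomes past difficult peptide bonds, at 806. Together the 61 genes held 1.11% to 1.48% of each library's total. Without the genes taken as ribosomal RNA the share was 1.39% to 1.48% in naive and 1.54% to 1.69% in injured libraries of both genotypes. That difference was not tested.

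Levels differed widely within each role. Among the start codon and ternary complex factors, Eif1, its close relative Eif1b (466) and Eif5 (131), which triggers GTP hydrolysis by eIF2, led a list that ended with Eif5b at 17.6. The 5 eIF2B subunits lay between 16.1 and 39.9, led by Eif2b5, the catalytic subunit, Eif2b4 (39.4) and Eif2b2 (37.3). The 14 eIF3 genes ran from 12.4 for Eif3j1 to 213 for Eif3h, with Eif3k (213) and Eif3i (187) next.

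In the eIF4 list the RNA helicases Eif4a1 (490) and Eif4a2 (296) and the scaffold relative Eif4g2 (265) were highest, and the cap-binding relative Eif4e3 (3.23) lowest. Eif4ebp1, whose protein keeps eIF4E from eIF4G, was at 67.8, above Eif4ebp2 (14.6) and the eIF4E transporter Eif4enif1 (13.2). Eif6, which keeps the large subunit from joining too early, was at 77.7, and Eif5a2 at 2.94. Of the elongation factors, Eef1b2, a nucleotide exchange subunit, was at 499 and the translocase Eef2 at 333. Eef1a2, the form of eEF1A that replaces eEF1A1 in mature neurons and muscle, was the lowest of the 61 at 2.6. Of the enzymes that modify elongation factors, the methyltransferases Eef1akmt1 and Eef1akmt2 were at 49.0 and 46.7 and the eEF2 kinase Eef2k at 13.8.

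**Figure D1:**
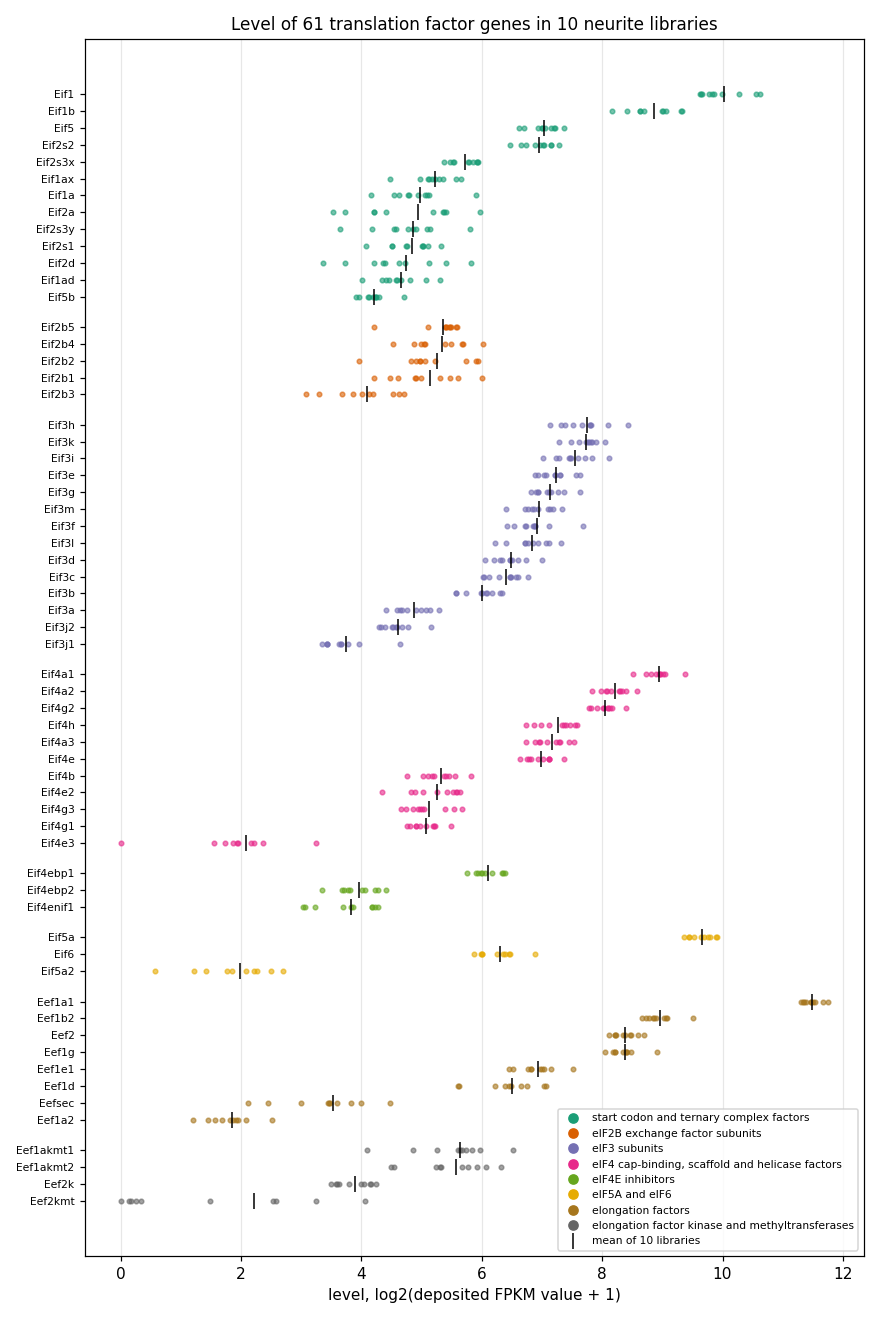
Each row is 1 of the 61 factor genes, grouped by role, with its level in the 10 libraries as points on the axis log2(value + 1) and the mean as a black tick. Eef1a1 lies furthest right (mean 2874), and Eef1a2, Eif5a2, Eif4e3 and Eef2kmt (means 2.6 to 3.63) lie furthest left, with Eef2kmt spread from 0 to 15.6.

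Over the 10 libraries the factors varied less than all genes tested, and at like level somewhat less than other abundant genes, with no test of the difference. The median coefficient of variation was 22.1% for the 61 factors, 52.5% for all genes tested and 21.6% for 1949 protein-coding genes at or above the factors' median level. It was 18.2% for the 31 factors at or above that level, the set to hold against the 1949 genes. Eef1a1 varied least, at 10.3%, and Eef2kmt, a low gene, most, at 141%. Exons of 14 factors overlap those of another tested gene, and in 5 of them over more than 10% of their length (Eif3j1, Eif4e3, Eef2kmt, Eif1ad and Eif5b). The kit does not mark strand, so these 5 values are uncertain. Eif3j1 and Eif3j2 are near-identical copies of each other and share reads.

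Injury was compared in wild-type neurites. Eif1 was the only factor that passed the threshold, and it was higher after injury. Its values were 785, 802 and 809 in naive libraries (798 ± 12.2, SD, n = 3) and 1506, 1235 and 1580 in injured libraries (1440 ± 181, SD, n = 3). All 3 injured libraries were above all 3 naive ones. The log2 fold change of value + 1 was 0.84 ± 0.14 (SE), with an adjusted p of 0.0141 by limma with Benjamini-Hochberg adjustment over all genes. Eif1 is on chromosome 11 of GRCm38, chr11:100319885-100322096 on the forward strand, and 9 near-identical copies elsewhere in the genome held a summed mean of 0.73.

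The call of Eif1 rested on several choices. Leaving out wild-type naive 1, 2 or 3 or wild-type injured 1 gave adjusted p-values by limma of 0.0946, 0.0827, 0.0675 and 0.0635, with log2 fold changes between 0.81 and 0.85. Without wild-type injured 3, the library that stood apart, it was 0.0264 and the fold change 0.77. Under the other settings listed with the processing below, the direction held throughout.

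Eif1 was 1 of 61 factors called (1.64%), against a background of 0.948% of all genes tested. At an unadjusted p under 0.05, 9 factors were higher and 2 lower, 18% of them against 13.9% of all genes. Groups did not overlap for 13 factors, 11 higher and 2 lower, which is 21.3% against 17.8% of all genes. These shares lie near the background.

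The genes next in order were Eif2s3y, Eif4a1 and Eif1b on the higher side, none of which passed. Eif4a1, the main eIF4A helicase, was at 421, 446 and 366 in naive and 664, 526 and 500 in injured wild-type libraries (log2 0.45 ± 0.15, adjusted p 0.224 by limma). Eif1b was at 341, 285 and 397 in naive and 507, 414 and 514 in injured libraries (log2 0.49 ± 0.17, adjusted p 0.235 by limma). In both genes the groups did not overlap.

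On the lower side stood Eif4h, which stimulates the eIF4A helicase, the eEF1A lysine methyltransferase Eef1akmt1, Eif2b2 and Eif3c, and again none passed. Eif4h was at 190.5, 175 and 164 in naive and 105, 116 and 161 in injured libraries, groups that did not overlap (log2 -0.49 ± 0.19, adjusted p 0.280 by limma). Eef1akmt1 was at 47.9, 56.1 and 62.1 in naive and 16.2, 50.05 and 27.9 in injured libraries, which overlap (log2 -0.93 ± 0.36, adjusted p 0.277 by limma). Eif3c, a core eIF3 subunit, had a log2 fold change of -0.28 ± 0.20.

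**Figure D2:**
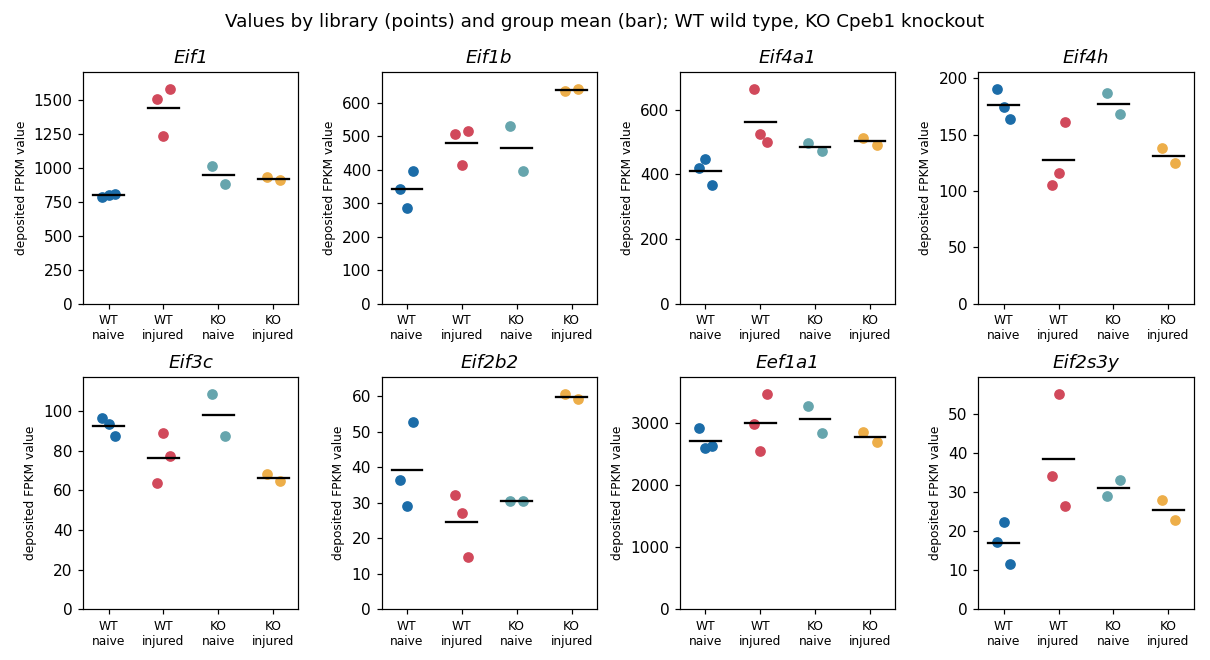
Values of 8 factors (deposited FPKM scale, axes from 0) in each library as points, with group means as bars. Eif1 separates wild-type injured libraries (1235 to 1580) from all others (785 to 1014), whereas Eif4h lies lower in the injured libraries of both genotypes and Eef1a1 overlaps between all groups.

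By role, the start codon and ternary complex factors had 12 of 13 fold changes above 0 in injured wild-type neurites, with a median of 0.44 and 4 of 13 at an unadjusted p under 0.05, a limit that 13.9% of all genes met. Fold changes above 0 were seen for 50.6% of all genes and 56.2% of the 1949 abundant protein-coding genes. The eIF3 subunits had 12 of 14 above 0 (median 0.32) and the elongation factors 6 of 8 (median 0.20). The eIF4 list had 6 of 11 above 0 (median 0.08), eIF2B 2 of 5 (median -0.28) and the eIF4E inhibitors 1 of 3 (median -0.14). Over the 61 factors 44 were above 0 with a median of 0.22, against 0.01 over all genes and 0.06 over the 1949 abundant protein-coding genes. Of 82 cytosolic ribosomal protein genes 79 were above 0, with a median of 0.40, so a rise was not particular to the factors. When every library was scaled to the same total the factors' median was -0.07, beside -0.21 over all genes.

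Library totals include ribosomal RNA, whose share differed between libraries, and its part in the factors' median under that scaling was not tested. The median of the 61 factors by library, on the log2 scale relative to the wild-type naive mean, was 0.09, -0.07 and -0.06 in wild-type naive libraries and 0.22, 0.07 and 0.33 in wild-type injured ones. Wild-type naive 1 lay above wild-type injured 2, so the groups overlap, and wild-type injured 3 was the highest of the 3.

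**Figure D3:**
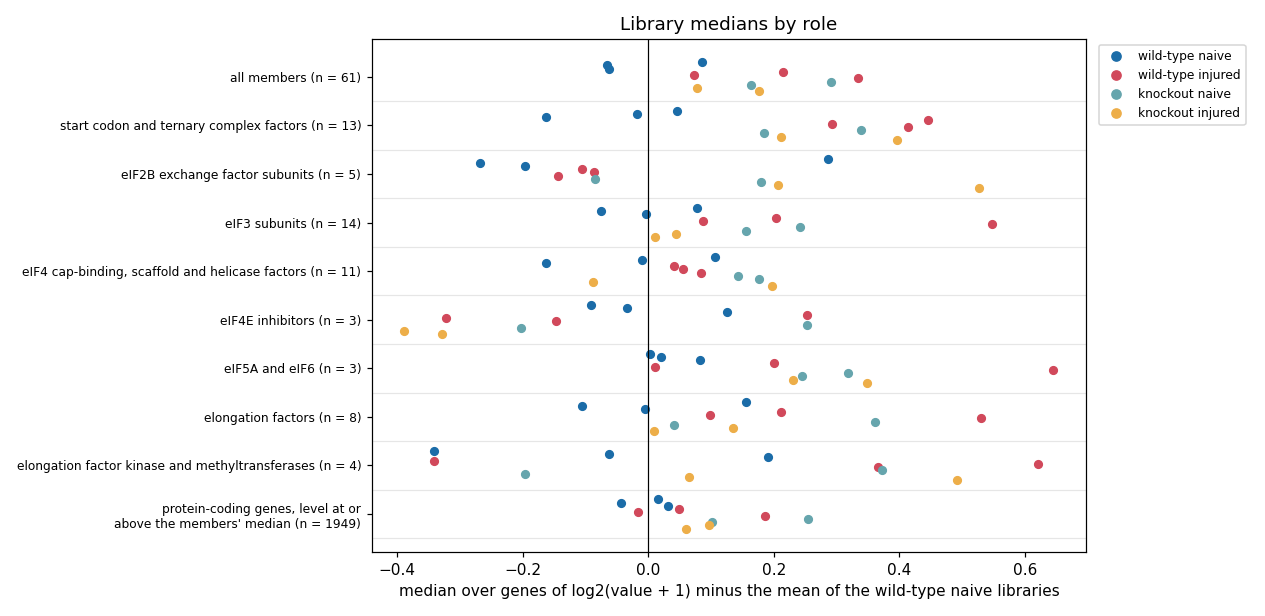
The horizontal axis is the median over the genes of a role of log2(value + 1) minus the wild-type naive mean, and each point is a library. For the start codon and ternary complex factors the 3 wild-type injured libraries (0.29 to 0.45) lie above the 3 wild-type naive ones (-0.16 to 0.05). The knockout naive (0.34 and 0.18) and knockout injured libraries (0.21 and 0.40) overlap the wild-type injured ones. Wild-type injured 3 is the furthest right for eIF3 (0.55) and the elongation factors (0.53).

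Markers of interneurons and some nuclear transcripts moved with injury in these libraries, and their part in the factors' values was not tested. Interneuron markers summed to 434 to 699 in wild-type naive and 51.8 to 88.6 in wild-type injured libraries, with 5 of 8 called lower by limma. Nuclear-retained transcripts summed to 2798 to 4233 and 6594 to 7928, a sum made up mostly of Malat1 (1856 to 3440 and 5513 to 6633). Of the 10, Malat1 and Rn7sk were called higher and none lower by limma. The list's median log2 fold change was -0.17, with Snhg11, at -2.07 ± 0.59, the lowest. Neuron markers summed to 3928 to 4438 and 2681 to 3508, with 0 of 10 called, and all 10 had values above 0 in every library. Their median log2 fold change was -0.36, with Tubb3, at -1.13 ± 0.26, the lowest. Nefm (1.86 ± 0.56), Nefl (0.86 ± 0.27) and Snap25 (0.05 ± 0.24) went the other way.

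Astrocyte markers summed to 2512 to 3123 in wild-type naive and 2798 to 5548 in wild-type injured libraries, highest in wild-type injured 3. That sum was made up mostly of Fabp7 (2106 to 2580 and 2178 to 4075). Of the 10, 1 was called higher, Sox9. The list's median log2 fold change was 0.86, with S100b, at -0.51 ± 0.56, the lowest. The part of astrocyte markers in the factors' values was not tested. Oligodendrocyte lineage markers summed to 158 to 176 and 162 to 405, with 0 of 7 tested called. Microglia markers summed to 8.46 to 18.5 and 8.03 to 31.8, with 0 of 5 called, and Cx3cr1 and Tmem119 were at or near 0 in all libraries.

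Injury was next compared in knockout neurites, with 2 libraries in each group. No factor passed limma's threshold, 0 of 61 against 0.0573% of all genes. Eif1 was at 1014 and 879 in naive and 932 and 908 in injured libraries, which overlap, with a log2 fold change of -0.04 ± 0.17. Unadjusted p-values under 0.05 were seen for 4 factors, 2 higher and 2 lower, or 6.56% against 5.73% of all genes.

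These were Eif2b2 and Eif1b on the higher side and Eif3m and Eif3c on the lower. Eif2b2, a regulatory subunit of eIF2B, was at 30.6 and 30.4 in naive and 60.6 and 59.2 in injured libraries (log2 0.95 ± 0.39, adjusted p 0.815 by limma). Eif1b was at 530.5 and 397 in naive and 636 and 640 in injured libraries (log2 0.47 ± 0.21, adjusted p 0.861 by limma). Eif3m, an eIF3 subunit, was at 136 and 161 in naive and 115 and 83.9 in injured libraries (log2 -0.58 ± 0.25, adjusted p 0.824 by limma).

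Eif3c was at 109 and 87.7 in naive and 68.3 and 64.6 in injured libraries (log2 -0.55 ± 0.24). With 2 libraries against 2, groups that do not overlap are common: they were seen for 27 of 61 factors (9 higher, 18 lower), or 44.3% against 35.5% of all genes, these 4 genes among them. Eif4h had a log2 fold change of -0.43 ± 0.23, Eif4enif1 of -0.80 ± 0.47 and Eef1akmt1 of 0.69 ± 0.44, also without overlap. Eef1d, an exchange subunit of eEF1, had 0.52 ± 0.39, and its groups overlap. The factors' median was -0.05, beside -0.09 over all genes. With every library scaled to the same total these medians were 0.20 and 0.10. The start codon and ternary complex factors had 6 of 13 fold changes above 0, against 42.0% of all genes, with a median of -0.04.

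**Figure D4:**
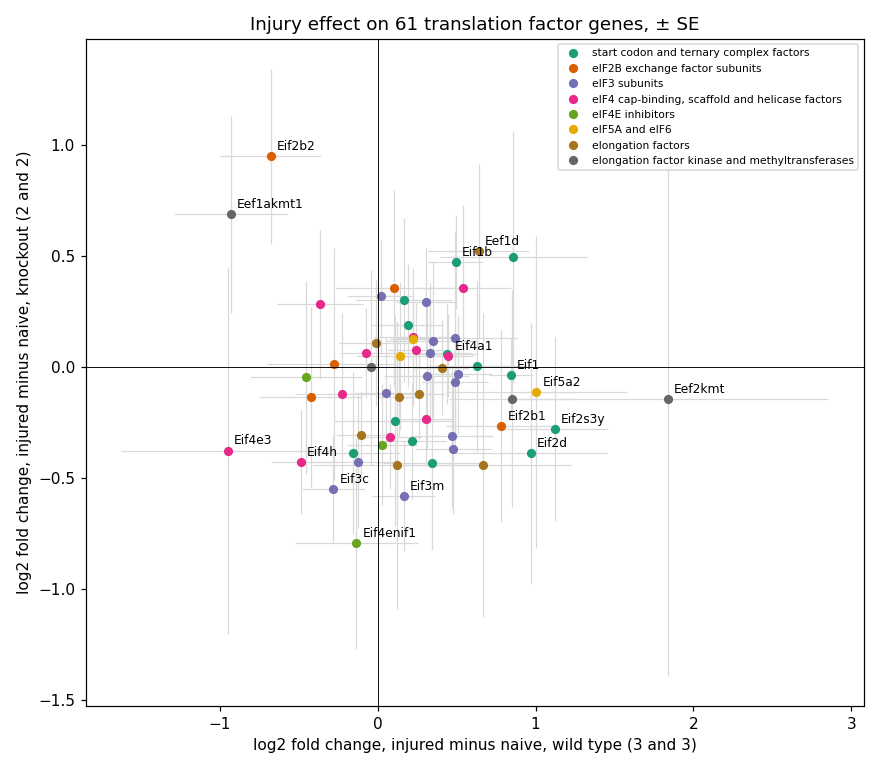
Each point is 1 of the 61 factors, with its log2 fold change after injury in wild-type neurites on the horizontal axis and in knockout neurites on the vertical axis, and bars of 1 SE. Eif1 lies at 0.84 and -0.04, Eif1b at 0.49 and 0.47, Eif4h at -0.49 and -0.43, and Eif2b2 and Eef1akmt1 lie at the upper left.

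The difference between the genotypes' injury effects was tested as an interaction. By limma 0 of 61 factors passed, and so did 0% of all genes, while 6 factors, 2 higher and 4 lower, had an unadjusted p under 0.05, 9.84% against 6.23%. The interaction for Eif1 was -0.88 ± 0.22, with an unadjusted p of 0.00146 and an adjusted p of 0.698 by limma. A difference between the genotypes in the injury effect on Eif1 is thus not shown by this test.

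Eif2b2 and Eef1akmt1 had interactions of 1.63 ± 0.51 and 1.62 ± 0.57, and Eif2s3y, Eif3m and Eif3f of -1.40 ± 0.53, -0.75 ± 0.32 and -0.84 ± 0.38, with adjusted p-values by limma between 0.791 and 0.800. The cap-complex factor Eif4b (0.65 ± 0.43) and the eIF3 subunit Eif3g (0.30 ± 0.34) completed the 4 highest. Of the 61 interactions 46 were below 0 with a median of -0.27. The median was -0.13 over all genes and -0.59 over 82 cytosolic ribosomal protein genes. With every library scaled to the same total the factors' median was 0.28, beside 0.30 over all genes.

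Genotype was compared in naive neurites. By limma 0 of 61 factors passed, against 0.146% of all genes, and 4 factors, all higher in knockout libraries, had an unadjusted p under 0.05, 6.56% against 3.76%. Eef1b2 was at 522, 423 and 465 in wild-type and 728 and 536 in knockout libraries (log2 0.42 ± 0.18). Eif4a3, a helicase of the exon junction complex, was at 124, 117 and 105 in wild-type and 173 and 149 in knockout libraries (log2 0.48 ± 0.20). Eif1b and Eif2s3y were the others, with log2 differences of 0.44 ± 0.19 and 0.88 ± 0.38.

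Groups did not overlap for 21 of 61 factors (19 higher, 2 lower), or 34.4% against 22.6% of all genes, and these 4 were among those higher. On the lower side Eif2a, which can deliver initiator tRNA without eIF2, differed by -0.68 ± 0.52, Eif4g3 by -0.37 ± 0.33, Eif4b by -0.34 ± 0.31 and Eef1akmt1 by -0.36 ± 0.40. The adjusted p was 1 by limma for all 8. The factors' median was 0.19, with 49 of 61 above 0, beside 0.17 over the abundant protein-coding genes and 0.06 over all genes. With every library scaled to the same total it was -0.02, beside -0.10 over all genes.

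Genotype was then compared in injured neurites. By limma 0 of 61 factors passed, against 0.261% of all genes, and 5 factors, 3 higher and 2 lower, had an unadjusted p under 0.05, 8.2% against 10.5%. Eif1 was lower in both knockout injured libraries than in all 3 wild-type injured ones (log2 -0.64 ± 0.15, adjusted p 0.170 by limma). Eif2b2 was at 32.1, 27.2 and 14.7 in wild-type and 60.6 and 59.2 in knockout injured libraries (log2 1.32 ± 0.36, adjusted p 0.216 by limma). Eef1akmt1 differed by 1.26 ± 0.40, Eif1b by 0.42 ± 0.19, the scaffold relative Eif4g2 by 0.30 ± 0.18, Eif2b1 by -0.91 ± 0.40 and Eif4enif1 by -0.84 ± 0.43. Eif2a was at 40.6, 35.5 and 61.9 in wild-type and 10.6 and 41.3 in knockout injured libraries, which overlap (log2 -1.05 ± 0.52); its difference was -0.11 without knockout injured 1 and -1.98 without knockout injured 2. Groups did not overlap for 14 of 61 factors (7 higher, 7 lower), or 23% against 21.9% of all genes. Malat1, a nuclear-retained transcript, differed between these groups too, at 5513 to 6633 in wild-type and 1236 and 2424 in knockout injured libraries, and was the 1 gene of that list of 10 called by limma (adjusted p 0.0200). Its part in the factors' values was not tested.

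Effects averaged over the other variable use the same libraries and add no independent evidence. For injury over both genotypes 0 of 61 factors passed limma's threshold, against 0.566% of all genes, and 5 (3 higher, 2 lower) had an unadjusted p under 0.05, 8.2% against 11.4%. The 5 injured and 5 naive libraries did not overlap for 1 factor, Eif4h, or 1.64% against 3.07% of all genes: its values were 105 to 161 after injury and 164 to 190.5 before (log2 -0.46 ± 0.15, adjusted p 0.250 by limma). The effects of Eif1b (0.48 ± 0.14), Eif1 (0.40 ± 0.11), Eef1d (0.58 ± 0.25), Eif4a1 (0.25 ± 0.12), Eif3c (-0.41 ± 0.16), Eef1b2 (-0.21 ± 0.13) and Eif4enif1 (-0.47 ± 0.31) did not pass either.

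For genotype over both states 0 of 61 factors passed limma's threshold, against 0.204% of all genes, and 4 (3 higher, 1 lower) had an unadjusted p under 0.05, 6.56% against 7.68%. Eif1b (0.43 ± 0.14), Eif4a3 (0.39 ± 0.14), Eef1b2 (0.32 ± 0.13) and Eif5a (0.23 ± 0.12) had the highest differences relative to their error, and Eif2a (-0.86 ± 0.37), Eif4enif1 (-0.51 ± 0.31), Eif1 (-0.20 ± 0.11) and Eif3a, the largest eIF3 subunit (-0.35 ± 0.21), the lowest. None of these passed.

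Several factors exist as related genes whose ratio within a library does not depend on how the library was scaled, apart from the pseudocount. Eef1a1 was 734 to 2210 times Eef1a2 in every library, and Eif4a2 was 47.2% to 76.7% of Eif4a1. The ratio of Eif4e2, a cap-binding relative that represses translation, to Eif4e was 0.57 higher on the log2 scale after injury over both genotypes. Its exact two-sided permutation p was 0.0333 over 120 relabellings, and 0.2 after Benjamini-Hochberg adjustment over 6 ratios.

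The ratio of the scaffolds Eif4g3 to Eif4g1 was 0.35 lower, or -0.35 on the log2 scale (exact permutation p 0.0667, adjusted 0.2). Ratios of Eif4a2 to Eif4a1 (-0.21), Eef1a2 to Eef1a1 (-0.16), Eif5a2 to Eif5a (0.27) and Eif2s3y to Eif2s3x (0.23) had exact permutation p-values of 0.167, 0.467, 0.533 and 0.567. Within the wild type 3 against 3 libraries cannot go below 0.1 in this test.

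**Figure D5:**
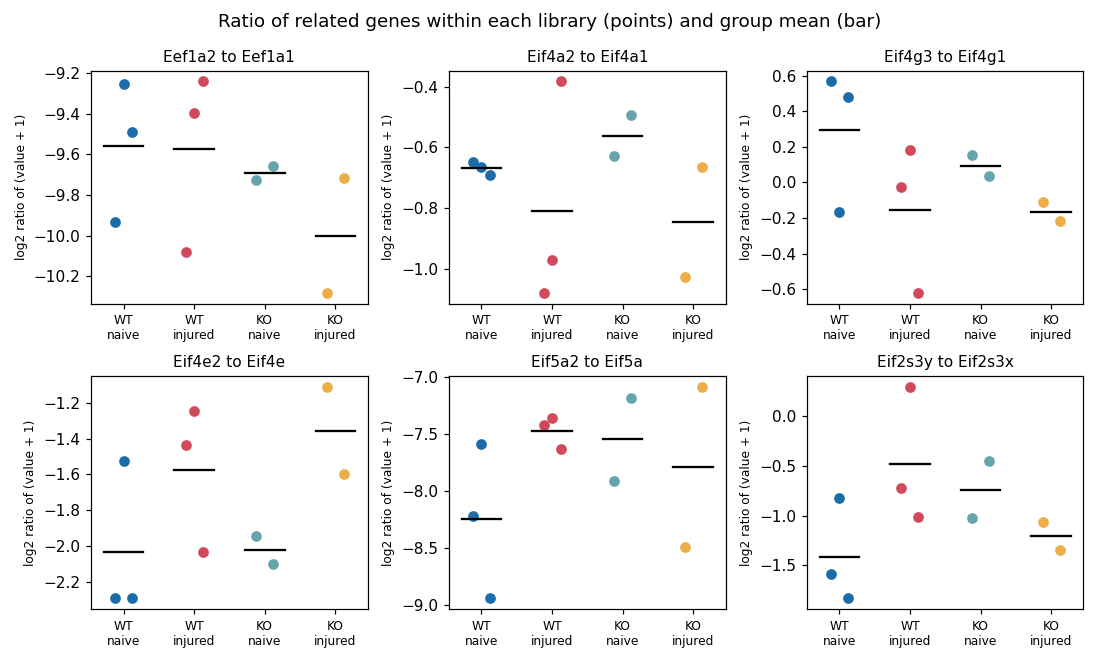
Each panel shows the log2 ratio of (value + 1) for a pair of related factor genes in each library as points, with group means as bars, on axes that do not start at 0. For Eif4e2 to Eif4e the group means are -2.04 and -1.57 in wild-type and -2.02 and -1.35 in knockout neurites, naive before injured, with overlap in the wild type.

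Eif2s3y and Eif2s3x are the Y- and X-linked genes of the gamma subunit of eIF2, which binds the initiator tRNA. Eif2s3y was at 17.1, 22.3 and 11.4 in wild-type naive and 34.2, 55.1 and 26.4 in wild-type injured libraries (log2 1.12 ± 0.34, adjusted p 0.172 by limma). In knockout neurites it was at 29.0 and 33.0 before injury and at 27.99 and 23.0 after it. The wild-type groups did not overlap, and those of another Y-linked gene, Ddx3y, did, at 6.23, 8.48 and 2.21 before and 11.9, 8.06 and 3.01 after injury. Xist, transcribed from the inactive X of female cells, was between 3.70 and 15.4 in all libraries, and Y-linked RNA was present in all of them too.

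Genes that act on these factors were described from lists of 61 genes, all tested: eIF2 kinases and phosphatase, mTOR and Mnk signalling, poly(A)-binding proteins, termination and recycling, hypusine and diphthamide enzymes, local translation regulators and other mRNAs with a 5′ terminal oligopyrimidine tract (TOP mRNAs). By limma 0 of 61 passed in any of the 7 comparisons. At an unadjusted p under 0.05, 7 were higher and 4 lower in wild-type injury, where 13.9% of all genes met that limit, and 4 and 1 in knockout injury, where 5.73% did. The 6 other TOP mRNAs had a list median of 0.61 in wild-type injury, -0.19 in knockout injury and -0.70 in the interaction, and none passed. For the 9 TOP mRNAs among the factors these medians were 0.31, -0.12 and -0.27, and over all genes 0.01, -0.09 and -0.13. With every library scaled to the same total the interaction median over all genes was 0.30.

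Eif2ak3, the kinase PERK that phosphorylates eIF2 in endoplasmic reticulum stress, was at 2.71, 8.41 and 1.89 in wild-type naive and 20.9, 8.74 and 14.5 in wild-type injured libraries. Over both genotypes its log2 fold change was 1.89 ± 0.50 (adjusted p 0.136 by limma). Gspt2, a termination factor, had -1.60 ± 0.52, Npm1, a nucleolar chaperone with a TOP mRNA, 0.41 ± 0.17, and Dph3, which takes part in diphthamide synthesis on eEF2, 0.48 ± 0.19. Cyfip2, a partner of FMRP, had -0.71 ± 0.25, Pabpn1, the nuclear poly(A)-binding protein, -0.22 ± 0.18, and Rps6kb1, the S6 kinase downstream of mTOR, 0.36 ± 0.29. None of these passed.

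The 5 genes outside the family whose log2 level was most like that of Eef1a1 over the 10 libraries were Sox8, Litaf, Mybbp1a, the ribosomal stalk gene Rplp0 and Pop5, with Pearson r between 0.925 and 0.958. They were picked as the highest of all genes tested, and all points share the libraries' scaling, so this is a description.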

How the data were processed

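Libraries of poly(A) RNA were made by Smart-seq2, a method that does not mark strand, per the labels' protocols. Reads were aligned with STAR 2.4.2a and quantified with RSEM 1.2.21 on mm10, per the submitters' processing notes. The deposited values were taken as the authors' FPKM multiplied by a factor per library (0.901 to 1.23). The reason was that at least 99.98% of distinct values in each library were within 0.001 of whole multiples of 0.01 times that factor. No note states this step. Read depth is unknown. Library totals of the values ran from 726420 to 1171840.

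The 61 genes and all lists were chosen with earlier results of these data known. limma 3.58.1 (R 4.3.3) was fitted to log2(value + 1) with a mean-variance trend over all 10 libraries and 4 group means, for genes at 1 or above in 2 or more libraries, so fold changes of low genes are understated. p-values were adjusted by Benjamini-Hochberg over 15712 genes at a threshold of 0.05. The fit was tested on simulated data for injury averaged over genotypes only, with changes larger than those of the factors. That test does not cover smaller changes or the other comparisons. Related-gene ratios were tested by exact two-sided permutation within genotype. Named genes were every factor that passed, the 4 highest and 4 lowest moderated t per comparison, the 3 most abundant per role, the related pairs, the smallest p per pathway list over both genotypes, and the 5 genes most like Eef1a1; others are named where a count of 5 or fewer or an overlap is listed. Gene names and positions are from GENCODE release M21 (GRCm38), and 647 of 45195 gene IDs had no match. Copies were found with blastn 2.17.0 at 95% identity or more. Alternatives covered pseudocounts, filters, scalings, biotypes, the fit's trend and groups, a replicate block and each library left out.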

Additional observations from a re-analysis of the deposited data

How the results depend on the processing

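Eif1 in wild-type injury was called in 13 of 21 alternatives, with log2 fold changes from 0.55 to 0.95 and adjusted p-values by limma from 0.00766 to 0.244. No factor was called (0) with no filter on low values (Eif1 adjusted p 0.0725), no trend (0.244) or only the groups compared (0.103), and leaving out single libraries gave 0 to 1 factors called. With equal totals 1 factor was called, but it was Eif4h (log2 -0.78, adjusted p 0.0440) and not Eif1 (0.0511); the cause was not tested. No factor was called in another comparison under any alternative. The factors' median moved with scaling by more than the spread of library medians within groups (SD 0.10). With equal totals it was -0.069 for injury in wild type, 0.20 for injury in knockout, -0.018 for genotype in naive, 0.21 for genotype in injured neurites and 0.28 for the interaction, against main values of 0.22, -0.05, 0.19, -0.12 and -0.27. Over all genes the medians with equal totals were -0.21, 0.097, -0.10, 0.20 and 0.30 in the same order. With quantile normalization the factors' median was 0.10 for injury in wild type, 0.069 for genotype in naive neurites and -0.10 for the interaction, and with median-ratio scaling -0.10 for the interaction. Leaving out single libraries gave medians of 0.15 to 0.29 for genotype in naive neurites and -0.42 to -0.18 for the interaction. Without knockout naive 2, Eef1d in knockout injury turned to -0.040, in a range of -0.040 to 1.09 over single libraries, and without knockout injured 2 the Eif5a2 to Eif5a ratio turned to -0.084, in a range of -0.084 to 0.62. Deviations of same-numbered libraries correlated between -0.048 and 0.041, and those of differently numbered ones between -0.051 and 0.051. Deviations within groups of 2 or 3 libraries mirror each other, so this cannot decide whether replicate numbers pair the samples. With a replicate block 1 factor was called, Eif1, at 0.84 with an adjusted p of 0.0121 by limma. Groups of 2 and 3 libraries limit what can be called.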
